A study of Mus musculus with 5 samples.

Results

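Wnt ligands and Frizzled receptors were followed through the H3K9ac peak lists of STHdh Q111 cells, together with the co-receptors and cytoplasmic proteins that pass the signal on. The set was defined by name, as the protein-coding genes of the GENCODE vM1 annotation whose symbol is Wnt or Fzd followed by a digit, plus Lrp5, Lrp6, Ctnnb1, Axin1, Axin2 and Apc. It held 35 of 22380 protein-coding genes, with 19 Wnt ligands, 10 Frizzled receptors, 2 LRP co-receptors, and 4 genes for beta-catenin and the complex that destroys it. Peaks were assigned to a gene if they were centred at most 10 kb from one of its annotated transcript starts in the mm9 assembly. This gave 65 of the 34286 peaks of the DOP-treated cells and 66 of the 33355 peaks of the vehicle-treated cells.

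The cells are conditionally immortalized mouse striatal progenitors of a C57BL/6 background, homozygous for mutant huntingtin (genotype STHdhQ111/Q111), and every sample used here carries that genotype. They were grown at 33 °C, the temperature at which the line keeps dividing, in medium with serum and G418. They were then kept for 24 h in serum-free medium with either DPBS vehicle (labelled SST, 2 samples) or 4 mM 4-deoxypyridoxine hydrochloride (DOP, 2 samples), an inhibitor of the sphingosine-1-phosphate lyase enzyme SPL. H3K9ac, the acetylation of histone H3 at lysine 9, is a mark of active promoters, and the comparison asks where it was called with and without the inhibitor. The serum withdrawal is shared by both conditions, and wild-type cells and the 1 IgG sample were not analysed here. Because 1 list was deposited per condition, no value below has an error between replicates and no test of the treatment could be made. A difference is therefore a difference between 2 lists, and fewer cells carrying the mark cannot be told apart from less of the mark per cell.

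Wnt proteins are lipid-modified secreted ligands that bind the extracellular cysteine-rich domain of Frizzled receptors. With Lrp5 or Lrp6 as co-receptor, the bound receptor disables a complex of Axin, Apc and kinases that otherwise marks beta-catenin for destruction, and beta-catenin then enters the nucleus and activates genes with TCF/LEF factors. In the developing forebrain the pathway patterns the dorsal side and maintains progenitors, while other Frizzled signals act through cell polarity and calcium without beta-catenin.

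The deposited score of a peak has no definition in the lists, so each score is given with its percentile, the share of peaks in the same list that score lower, with ties counted at their midpoint. The median score was 418.7 in the DOP list and 399.8 in the SST list. A peak is called shared when its 200 bp interval overlaps a peak of the other list by at least 1 bp, and unshared otherwise.

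The sequences under these peaks range from CpG-dense promoters to CpG-poor DNA, and examples of each are shown first. The following DNA is read from the mm9 assembly on the strand of the gene, 5′ to 3′, with every CpG dinucleotide in capitals. Lrp6 and Fzd2 carry the highest-scoring peaks of the set that overlap no UTR, the former in front of the gene at chr6:134517066-134517265 (minus strand) and the latter in its coding exon at chr11:102466334-102466533 (plus strand), and both have a counterpart in the SST list.
Lrp6: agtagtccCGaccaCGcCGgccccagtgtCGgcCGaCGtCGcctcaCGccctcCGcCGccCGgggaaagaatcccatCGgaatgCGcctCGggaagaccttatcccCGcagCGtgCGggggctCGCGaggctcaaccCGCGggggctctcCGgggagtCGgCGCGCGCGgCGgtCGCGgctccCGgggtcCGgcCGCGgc
Fzd2: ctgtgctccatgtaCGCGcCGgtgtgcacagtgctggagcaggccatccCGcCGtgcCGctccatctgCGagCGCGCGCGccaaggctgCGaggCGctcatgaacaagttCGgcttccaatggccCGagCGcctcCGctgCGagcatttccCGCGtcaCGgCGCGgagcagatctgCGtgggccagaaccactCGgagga
The 200 bases hold 34 CpG dinucleotides at Lrp6 and 25 at Fzd2.

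Unshared peaks at ligand genes held from 1 to 33 CpG dinucleotides. The examples shown, from the genes marked in a single list and clear of UTRs, are CpG-poor: a pair of DOP peaks in front of Wnt10b (minus strand), at chr15:98608688-98608887 and chr15:98610818-98611017, a DOP peak in front of Wnt1 at chr15:98619809-98620008 (plus strand), and the SST peak in an intron of Wnt3a at chr11:59096491-59096690 (minus strand).
Wnt10b, near: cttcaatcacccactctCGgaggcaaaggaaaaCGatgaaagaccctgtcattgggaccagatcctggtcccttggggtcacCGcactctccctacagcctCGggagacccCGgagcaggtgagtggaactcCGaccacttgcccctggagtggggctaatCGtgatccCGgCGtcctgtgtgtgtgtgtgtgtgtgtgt
Wnt10b, far: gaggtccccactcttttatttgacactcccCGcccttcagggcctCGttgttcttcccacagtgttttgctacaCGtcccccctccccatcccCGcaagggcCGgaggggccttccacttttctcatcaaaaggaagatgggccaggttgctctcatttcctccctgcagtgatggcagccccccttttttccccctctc
Wnt1: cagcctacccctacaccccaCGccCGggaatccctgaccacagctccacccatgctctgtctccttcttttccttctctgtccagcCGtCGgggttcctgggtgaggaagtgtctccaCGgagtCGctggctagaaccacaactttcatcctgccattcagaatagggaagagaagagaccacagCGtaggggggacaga
Wnt3a: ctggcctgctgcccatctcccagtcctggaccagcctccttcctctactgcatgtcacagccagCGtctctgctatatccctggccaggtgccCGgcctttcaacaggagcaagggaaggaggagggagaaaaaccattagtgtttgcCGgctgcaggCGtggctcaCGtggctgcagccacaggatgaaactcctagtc
They hold 9, 5, 7 and 5 CpG dinucleotides, in that order. The strongest Wnt10b peak, which overlaps the 5′ UTR and is not printed, holds 20, and unshared SST peaks at Wnt5b, Wnt6 and Wnt2b hold up to 33, 25 and 21.

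In total, 24 of the 35 genes had a DOP peak, where 57.7% of all protein-coding genes did, and 23 had an SST peak, where 56.9% did. Peaks in both lists were found at 22 genes, against a background of 55.3%. Wnt1 and Wnt10b had peaks in the DOP list only, a pattern shown by 2.39% of all genes, and Wnt3a in the SST list only, shown by 1.62%. The remaining 10 genes had no peak in either list, against 40.7% of all genes: Wnt3, Wnt4, Wnt5a, Wnt7a, Wnt7b, Wnt8a, Wnt8b, Wnt9b, Wnt16 and Fzd10. Ligands made up 9 of the 10 unmarked genes, and 19 of the 35 genes of the set. Of the 19 ligands, 9 were unmarked, where 40.7% of all genes were. A further 7 were marked in both lists, where 55.3% of all genes were, and 3 in a single list. Of the 10 receptors, 9 were marked in both lists, as were both co-receptors and all 4 genes of the beta-catenin group.

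**Figure D1:**
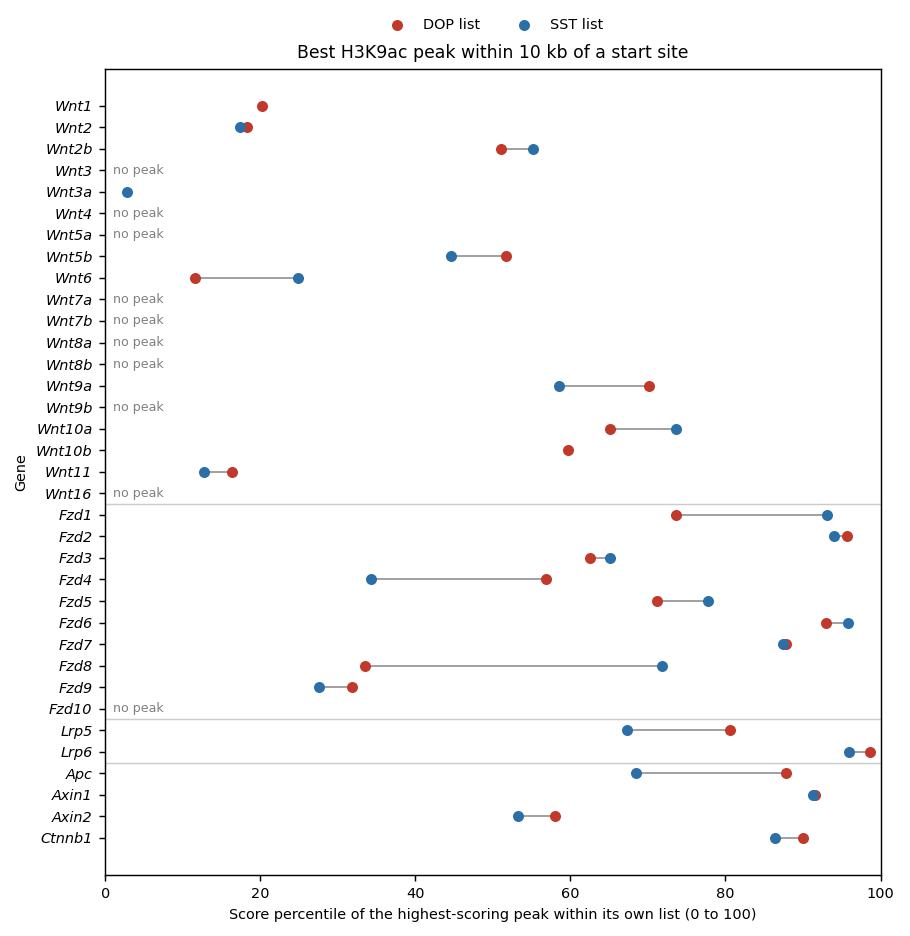
Score percentile of the best peak of each gene, with 1 row per gene and 1 symbol per list, the horizontal axis running from the lowest to the highest score of that list. The co-receptors, Axin1, Ctnnb1 and several Frizzled genes sit at the right, and the marked Wnt ligands sit mostly to the left of them, with a median best percentile of 51.0 in the DOP list and 34.7 in the SST list.

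More DOP than SST peaks were found at 9 genes, where 19.3% of all genes had more, and fewer at 7, where 16.9% had fewer. Of the 65 DOP peaks 17 were unshared, or 26.2% (Wilson 95% interval 17.0% to 38.0%), and of the 66 SST peaks 15, or 22.7% (14.3% to 34.2%). The intervals cover the counting of peaks only and treat neighbouring peaks of a gene as independent. Near all genes the unshared share was 16.2% of DOP peaks and 13.3% of SST peaks. An unshared peak was present at 17 of the 35 genes. The share of all genes with such a peak was not counted, so this number has no background to be read against.

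The rank of the best peaks also differed between the ligands and the other groups. The best peak of a marked ligand had a median percentile of 51.0 in the DOP list, with a range of 11.6 to 70.1, and 34.7 in the SST list, with a range of 2.81 to 73.6. The best peak of a marked receptor had a median of 71.2 and 77.8, that of a co-receptor 89.6 and 81.6, and that of the beta-catenin group 88.9 and 77.5. Over all marked genes the medians were 78.4 and 77.3, so the ligand peaks ranked below those of other genes in both lists, while the medians of the other groups lay on either side of those of all genes.

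Wnt10b encodes a canonical ligand, and it had the most peaks of the genes of the set marked in the DOP list alone. The gene lies on the minus strand at chr15:98602184-98608581. The strongest DOP peak had a score of 515.9 (percentile 59.6) and was centred 206 bp inside the gene, in its 5′ UTR. The next had a score of 386.1 (percentile 46.4) and was centred 206 bp in front of the start, and the last had a score of 176 (percentile 20.2) and lay 2336 bp in front of it. No SST peak lay closer to the strongest of them than 14444 bp, and that SST peak, at the start of Arf3, was shared with the DOP list. A DOP list with 3 or more peaks at a gene without any SST peak was seen at 21 genes, or 0.0938% of all, and the reverse at 18 genes, or 0.0804%. A best peak above percentile 50 in a gene marked in the DOP list only was seen at 20 genes (0.0894%), and in the SST list only at 22 (0.0983%). These limits were chosen after the Wnt10b values were seen, so the gene meets them by choice and its rarity cannot be read from them. Only genes marked in a single list could meet them, 535 in the DOP list and 362 in the SST list.

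Wnt1, the founding member of the family, starts 11707 bp from Wnt10b and is transcribed away from it. Its own peak lay 380 bp in front of the start with a DOP score of 97 (percentile 9.72), and the nearest SST peak was 16119 bp away. The second DOP peak within reach of Wnt1, at 9371 bp, is the far peak of Wnt10b counted again. Across the pair and 10 kb on either side the DOP list held 7 peaks and the SST list 3, and the shared peaks at Arf3 made up 3 in each list. The distance limit bears on this locus, since the 9371 bp peak lay just inside it. The closest SST peak to a Wnt10b start lay 10992 bp away and the closest to a Wnt1 start 13905 bp away, both outside the limit. With a limit of 20 kb, Wnt1, Wnt10b and Wnt3a had peaks in both lists and Wnt7b was the only gene of the set in a single list. The closest peaks so gained lay nearest to starts of other genes, namely Arf3 for Wnt10b, Ddn for Wnt1 and Wnt9a for Wnt3a.

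Wnt3a, a canonical ligand with a dorsal forebrain role, had a single SST peak with a score of 39 (percentile 2.81), 7664 bp inside the gene in an intron. The nearest DOP peak was 24059 bp away. Its neighbour Wnt9a, whose start lies 16176 bp from that of Wnt3a, had a DOP peak with a score of 648 (percentile 70.1) 217 bp inside the gene, and an SST peak with a score of 483.9 (percentile 58.6) 2 bp from it. The SST list had 2 more intronic peaks at Wnt9a, unshared, with scores of 141.7 and 141.4. The Wnt3a call is among the lowest of its list.

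Wnt5b, best known as a non-canonical ligand, had different peaks at its outer and inner starts. At the outer start the lists shared a peak, with a score of 434 in the DOP list (percentile 51.7) and 351.8 in the SST list (percentile 44.6). The SST list added unshared peaks on either side of it, with scores of 191.2 and 155. The DOP list had 3 unshared peaks nearest to the inner starts, with scores of 121, 84 and 84. The first lay 365 bp and the second 31 bp from an inner start, and the third 2889 bp in front of another. The nearest SST peak to each of the 3 was 11817 to 27118 bp away. The peak counts of the gene were thus 4 and 3, with all the DOP peaks unique to that list at the lower end of its scores.

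Wnt2b had a shared promoter-distant site 6172 to 6319 bp in front of its start, where the best peak scored 427.9 in the DOP list (percentile 51.0) and 450 in the SST list (percentile 55.2). The DOP list added an unshared peak of score 139 at 6613 bp, and the SST list an unshared peak of score 43 (percentile 3.45) at 277 bp in front of the start. Wnt6 had a shared intronic peak at percentile 11.6 in the DOP list and 7.34 in the SST list. The SST list alone had a Wnt6 peak in the 5′ UTR, with a score of 198 (percentile 24.9), 188 bp from the start and 875 bp from the nearest DOP peak. At the start itself, Wnt2b and Wnt6 were therefore marked in the SST list and not in the DOP list, and both of those peaks had low scores.

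Wnt10a lies head to tail with Wnt6, with 19624 bp between the starts, and was the ligand with the most peaks, 5 in each list. Its best peak scored 579.1 in the DOP list (percentile 65.1) and 678 in the SST list (percentile 73.6). In the intron 3469 bp from the start, the matched peak scored 384 in the DOP list (percentile 46.2) and 167.4 in the SST list (percentile 20.5), a change of 25.6 percentile points. The same DOP peak also overlapped a second SST peak, with a score of 250.6 (percentile 31.9), so that the site was called once in the DOP list and as 2 peaks in the SST list. Unshared peaks of Wnt10a had scores of 484.9 and 312 in the DOP list and 450 in the SST list, each within 446 bp of a peak of the other list. Wnt2 and Wnt11 completed the marked ligands, with shared peaks only and best percentiles of 12.8 to 18.3 over both lists.

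Each list had 29 peaks near the Frizzled receptors, of which 5 were unshared, or 17.2% (7.60% to 34.5%), against 16.2% of DOP peaks and 13.3% of SST peaks near all genes. Near the ligands 10 of 21 DOP peaks were unshared, or 47.6% (28.3% to 67.6%), and 8 of 19 SST peaks, or 42.1% (23.1% to 63.7%). The 10 include 3 peaks at Wnt10b, the near peak of its neighbour Wnt1 and 3 peaks at Wnt5b. All these intervals count neighbouring peaks as independent, so they are likely too narrow and do not serve as a test. Unshared peaks had low scores in general, with a median percentile of 21.97 in the DOP list and 22.6 in the SST list near all genes, and the ligand peaks as a whole had medians of 21.1 and 18.8. How far their low rank accounts for the unshared share was not tested.

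Fzd2 had the highest mean best percentile among the receptors. Its best DOP peak had a score of 1407.9 (percentile 95.6) and its best SST peak 1283.4 (percentile 94.0), centred 18 bp apart where the 5′ UTR meets the coding exon. The SST list had 8 peaks along the gene and the DOP list 5, the 3 SST peaks without a matched DOP peak scoring 389.4 in front of the gene and 798.6 and 755 within the coding exon. The peak of score 798.6 overlapped a DOP peak matched to another SST peak. At 1018 bp in front of the start the ranking went the other way, with a DOP score of 566 (percentile 64.1) against 349.6 (percentile 44.3). Between 688 and 2543 bp from the start only the SST list had peaks.

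Fzd6, whose product acts mainly in planar cell polarity, had its best peak at the same base in both lists, 180 bp inside the gene, with a score of 1228.3 in the DOP list (percentile 92.9) and 1439.6 in the SST list (percentile 95.8). Fzd7 had 6 DOP and 5 SST peaks. Its best peaks had almost the same rank, at percentiles 87.9 and 87.4, with scores of 1025 and 987, but the DOP peak was unshared because its centre lay 219 bp from the SST peak. That SST peak was matched to another DOP peak, with a score of 635.5 (percentile 69.2). The pair matched in the coding exon differed more, with a DOP score of 560.6 (percentile 63.6) and an SST score of 930 (percentile 85.6). Of the other unshared Fzd7 peaks, the DOP peak had a score of 219 and lay 5769 bp from the start, and the SST peak had a score of 562 and lay in the coding exon. In the 5′ UTR of Fzd1 a single SST peak with a score of 1229.4 (percentile 93.1) overlapped 2 DOP peaks with scores of 703.9 (percentile 73.6) and 660.3 (percentile 70.9), and the summed scores of the gene were 2324 in the DOP list and 2302 in the SST list.

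Fzd8, on chromosome 18, had a well-ranked promoter peak in the SST list only. That peak had a score of 651 (percentile 71.9), 245 bp in front of the start, and the nearest DOP peak was 1080 bp away. The lists shared the other Fzd8 peak, in the coding exon, with scores of 276.4 and 280. An SST peak above percentile 70 with no DOP peak within 1 kb was found for 46 of 28989 SST peaks near genes (0.159%), and the reverse for 22 DOP peaks (0.0744%). The limit of percentile 70 was chosen after the Fzd8 value was seen.

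Fzd4 had a single shared DOP peak with a score of 485 (percentile 56.8), which overlapped 2 SST peaks with scores of 268.4 (percentile 34.3) and 207.6 (percentile 26.2), or 476 in sum. The DOP list added unshared peaks with scores of 159.7 and 116.3 in front of the gene, which lay nearer to the start of the neighbouring gene Tmem135, in an intron of it, than to Fzd4. Fzd5 had its best peak shared, with a score of 664.2 in the DOP list and 750 in the SST list, and 1 further unshared peak in each list, with scores of 370.8 and 431. Fzd3 and Fzd9 had shared peaks only, with best percentiles of 62.6 and 65.1 at Fzd3 and 31.9 and 27.6 at Fzd9. Fzd10 was the only receptor without a peak, and the nearest DOP peak was 407042 bp from its start.

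Lrp6 had the highest-ranked peaks of the set. The best DOP peak, over a coding exon, had a score of 1833.2 (percentile 98.6), and the best SST peak had a score of 1450.7 (percentile 95.9) 114 bp from it, where the DOP peak also overlapped an SST peak of score 849.7. The peak in front of the gene that is printed above scored 1264.8 in the DOP list and 1230.6 in the SST list. The SST list added an unshared peak of score 238. Lrp5 had its best peak in an intron, with a score of 833.3 in the DOP list (percentile 80.6) and 585.7 in the SST list (percentile 67.3), and an unshared DOP peak of score 247 in front of the gene.

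Ctnnb1 encodes beta-catenin. It had 2 DOP peaks with scores of 1098.3 and 855.7, and 4 SST peaks with scores of 954.9, 655.8, 778.3 and 613. The last of these was unshared and lay 1035 bp downstream of the nearest annotated start. The best percentiles were 89.96 and 86.4. Axin1, the scaffold of the destruction complex, had best scores of 1162.1 (percentile 91.5) and 1136 (percentile 91.3). Apc had best scores of 1024.2 (percentile 87.8) and 601.8 (percentile 68.5), with 4 peaks in each list and an unshared DOP peak of score 274. The best DOP peak of Apc overlapped a second SST peak as well, with a score of 555.7. Axin2, a target of the pathway as well as a part of it, had a single shared peak with a score of 497 in the DOP list (percentile 58.0) and 430 in the SST list (percentile 53.3), the lowest of the group in both lists.

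**Figure D2:**
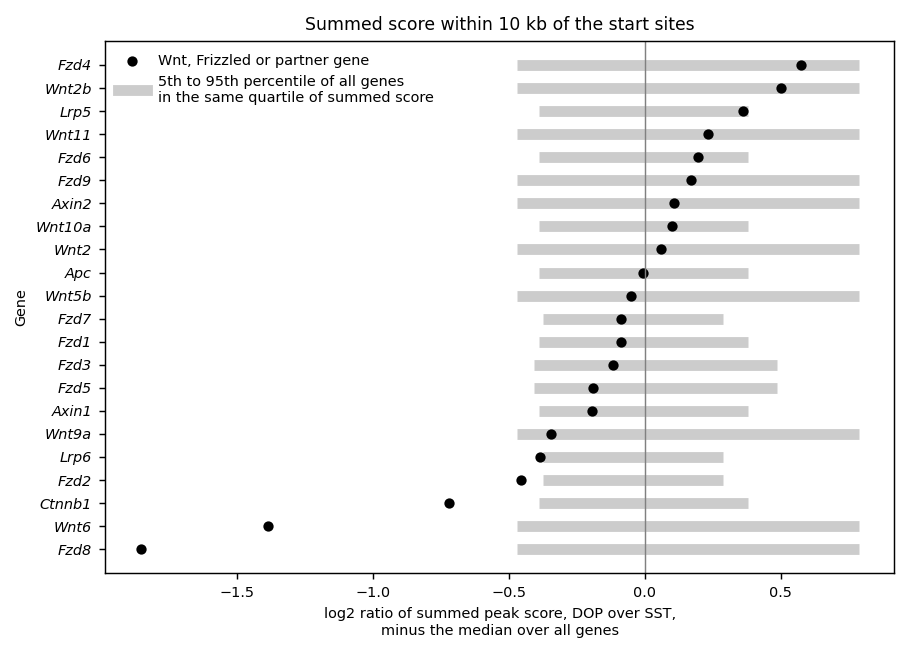
log2 ratio of the summed peak score, DOP over SST, less the median of all genes (horizontal axis), for each of the 22 genes with a peak in both lists, 1 per line. Grey bars span the 5th to 95th percentile of all genes in the same quartile of summed score, and Fzd8, Wnt6, Ctnnb1, Fzd2 and Lrp6 lie below their bar.

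The scores of all peaks at a gene were also added up within each list, for the genes marked in both. The log2 ratio of the DOP sum to the SST sum had a median of 0.10 over 12375 genes, and ratios are given after subtracting it. Over the 22 genes of the set the median was -0.07, with a range of -1.85 to 0.57, and over all genes the 5th and 95th percentiles were -0.41 and 0.53. A DOP sum over 1.5-fold lower was found at 3 genes, where 2.19% of all genes had one, and a DOP sum over 1.5-fold higher at 0 genes, where 3.83% had one. The 3 genes were Fzd8 with summed scores of 276.4 and 931 (-1.85), Wnt6 with an SST sum of 270 and a single low DOP peak (-1.38) and Ctnnb1 with 1954 and 3002 (-0.72). At all 3 the DOP list had fewer peaks than the SST list, and a sum depends on the number of peaks called as well as on their scores. At Ctnnb1 the peaks covered 400 bp in the DOP list and 800 bp in the SST list, with mean scores of 977 and 750.5, and both matched pairs scored higher in the DOP list. At Fzd8 they covered 200 and 400 bp, with mean scores of 276.4 and 465.5, and at Wnt6 200 and 400 bp. With peaks within 1 kb only, Ctnnb1 had a ratio of -0.38 and Wnt6 no DOP peak, so that Fzd8 alone passed the limit. The highest ratios were those of Fzd4, with summed scores of 761 and 476 (0.57), Wnt2b (0.50) and Lrp5 (0.36). Without the DOP peaks nearest to Tmem135, the Fzd4 ratio was -0.075. Genes with low sums scatter more, since the 5th to 95th percentile range was -0.47 to 0.79 in the lowest quartile of genes by summed score and -0.37 to 0.29 in the highest. Fzd2 (-0.45, highest quartile) also lay below the range of its quartile, as did Lrp6 (-0.39, highest quartile), although the mean score per peak was higher in the DOP list at both, with 773.4 against 617.1 at Fzd2 and 1549 against 942.25 at Lrp6. The sums and the 1.5-fold limit were chosen after the peak values had been seen.

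**Figure D3:**
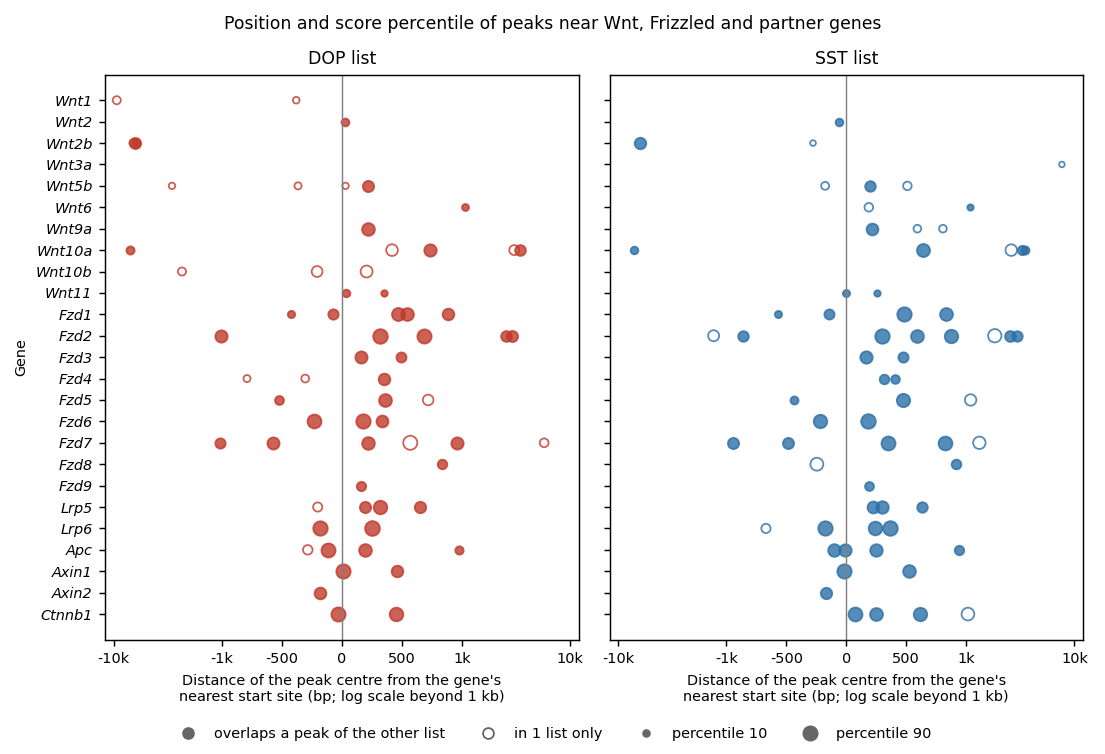
Signed distance of each peak centre from the nearest start of its gene (horizontal axis, bp, linear within 1 kb and logarithmic beyond), 1 line per gene, for the DOP list at the left and the SST list at the right. Filled symbols overlap a peak of the other list, open symbols do not, and symbol size follows the score percentile. Most peaks lie within 1 kb of a start.

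Most peaks of the set sat close to starts, and the shares below were not tested against those of all genes. Within 1 kb of a start lay 78.5% of the DOP peaks and 78.8% of the SST peaks of the set, against 86.9% and 87.7% near all genes. Peaks downstream of the start made up 63.1% and 68.2%, against 70.9% and 72.8%. By annotation, counting a peak once per gene, 20 DOP peaks lay in introns, 13 in 5′ UTRs, 10 in coding exons, 2 in the 3′ UTR of Fzd2 and 21 outside the gene. Of the SST peaks, 25 lay in introns, 13 in 5′ UTRs, 11 in coding exons, 2 in the same 3′ UTR and 15 outside the gene.

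Of the 17 unshared DOP peaks in the whole set, 7 lay over 10 kb from any SST peak, or 41.2%, against 18.3% of unshared DOP peaks near all genes. They were the 3 peaks at Wnt10b, the near peak of Wnt1 and the 3 inner peaks of Wnt5b. Of the 15 unshared SST peaks, 1 lay over 10 kb from any DOP peak, or 6.67%, against 15.5%, and it was the Wnt3a peak. Within 500 bp of a peak of the other list lay 6 unshared DOP peaks, or 35.3%, against 38.2% near all genes. The same held for 8 unshared SST peaks, or 53.3%, against 44.4%. Unshared thus covered a range, from a peak close beside a peak of the other list, as at Fzd7, to a site with nothing called within 10 kb, as at Wnt10b. Other unshared peaks, as at Wnt6 and Fzd8, lay at distances in between.

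Where peaks could be paired, their ranks moved as those of other peaks did. The 45 mutually nearest overlapping pairs had a median change of 1.85 percentile points from the SST to the DOP list, with 5th and 95th percentiles of -17.5 and 19.7. Over all 25377 such pairs the median was 1.34 and the percentiles were -17.2 and 21.1. The DOP percentile was the higher one in 29 of the 45 pairs and the SST percentile in 16, against 14966 and 10411 over all pairs. The largest changes upward were those of Wnt10a (25.6), Fzd4 (22.6) and Fzd2 (19.8), and downward those of Fzd7 (-21.9) and Fzd1 (-19.5). At Wnt10a, Fzd4 and Fzd1 the pair sets the single peak of a list against 1 of 2 overlapping peaks of the other, so these 3 changes are not differences in the score of a whole site. Beside the Fzd7 pair the DOP list had a further, unshared peak of score 1025, and beside the Fzd2 pair the SST list had one of score 389.4. The centres of a pair were a median of 35 bp apart, against 29 bp over all pairs.

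**Figure D4:**
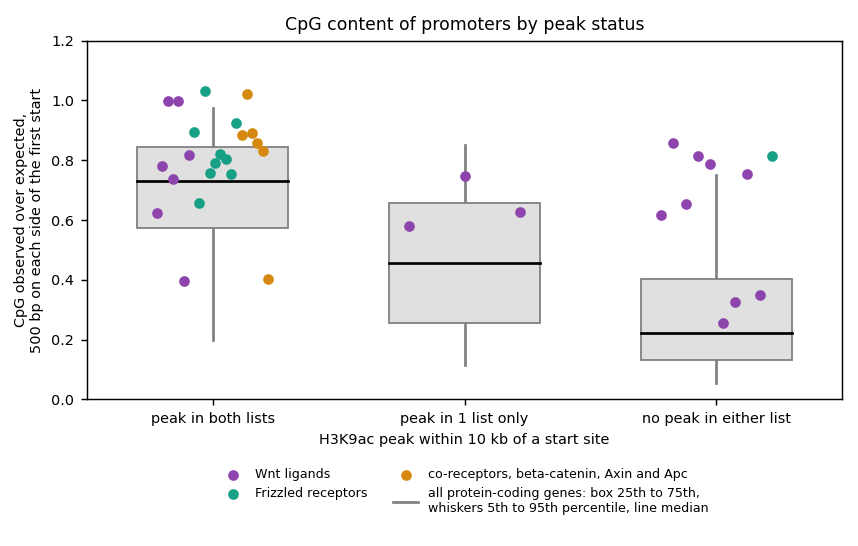
Ratio of observed to expected CpG dinucleotides within 500 bp of the first start (vertical axis) for genes with a peak in both lists, in a single list or in neither, with each Wnt, Frizzled or partner gene as a point over a box for all protein-coding genes (25th to 75th percentile, line at the median, whiskers at the 5th and 95th). The unmarked genes of the set have a median of 0.703, against 0.221 for all unmarked genes.

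The 10 unmarked genes of the set, Fzd10 and otherwise ligands, were set beside all unmarked genes for the DNA at their starts, without a test. The ratio of observed to expected CpG dinucleotides, taken within 500 bp of the first start, had a median of 0.819 at the genes of the set marked in both lists and 0.703 at the 10 unmarked ones. Over all genes those medians were 0.731 and 0.221. A ratio above 0.6 was found at 7 of the 10 unmarked genes, against 11.8% of all unmarked genes, and 5 of them exceeded 0.751, the 95th percentile of unmarked genes. Of all genes above 0.6, 89.5% had a peak in either list, whereas 8 of the 14 ligands above it did. The limit of 0.6 was chosen after the values were seen. All 10 receptors were above it, Fzd10 included. Of the genes marked in both lists, Wnt10a had the lowest ratio, 0.394, with peaks 418 to 734 bp from its single start, and Ctnnb1 had 0.401 at a first annotated start that lies apart from the start that carries its peaks.

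The DNA in front of a few unmarked ligands shows the contrast. Wnt4 at chr4:136833204-136833403 (plus strand) and Wnt7a at chr6:91361358-91361557 (minus strand) have CpG-dense sequence without a peak, and Wnt8b at chr19:44567762-44567961 (plus strand) has CpG-poor sequence, each being the 200 bases before the first start.
Wnt4: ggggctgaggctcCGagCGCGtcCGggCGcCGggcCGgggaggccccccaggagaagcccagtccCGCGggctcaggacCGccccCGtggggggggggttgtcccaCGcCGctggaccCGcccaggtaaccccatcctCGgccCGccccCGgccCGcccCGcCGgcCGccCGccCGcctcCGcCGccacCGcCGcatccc
Wnt7a: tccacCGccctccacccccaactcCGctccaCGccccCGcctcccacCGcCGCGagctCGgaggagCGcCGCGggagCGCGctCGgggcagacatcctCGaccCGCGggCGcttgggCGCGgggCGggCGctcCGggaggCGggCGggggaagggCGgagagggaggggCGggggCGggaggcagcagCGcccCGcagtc
Wnt8b: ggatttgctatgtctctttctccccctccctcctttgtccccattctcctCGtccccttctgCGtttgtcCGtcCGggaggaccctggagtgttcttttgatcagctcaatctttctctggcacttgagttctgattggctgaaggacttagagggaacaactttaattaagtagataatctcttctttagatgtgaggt
They hold 27, 30 and 4 CpG dinucleotides, in that order. The ratio within 500 bp of the start was 0.859 at Wnt4, 0.813 at Wnt7a and 0.326 at Wnt8b. The other unmarked genes with a low ratio were Wnt8a (0.254) and Wnt16 (0.349).

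TCF/LEF factors bind variants of a short motif, and the letters CTTTGAA or CTTTGAT were searched on both strands. From 250 bases before to 50 bases after the first start, 2 of the 35 genes held a match, Wnt8a and Wnt11, or 5.71% against 7.93% of all protein-coding genes. Among the peaks, 0 of 65 DOP peaks and 2 of 66 SST peaks (3.03%) held one, at Fzd7 and Wnt11, against 3.87% and 3.83% of all peaks of those lists. A match describes the letters in these windows only.

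**Figure D5:**
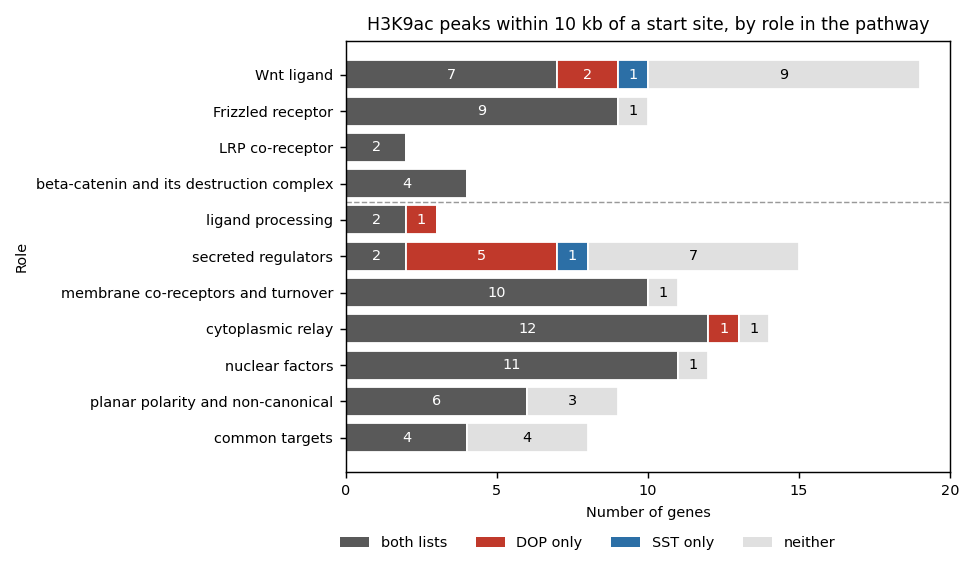
Number of genes with a peak in both lists, in the DOP list only, in the SST list only or in neither, for the groups of the set and for the roles of other Wnt pathway genes. Ligands and secreted regulators hold most of the genes marked in a single list.

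Other genes of the pathway were grouped by textbook role, 68 in all. Peaks in both lists were found at 46, in the DOP list only at 7, in the SST list only at 1 and in neither at 14, where the shares over all protein-coding genes were 55.3%, 2.39%, 1.62% and 40.7%. Of the 15 secreted regulators, which bind ligands or receptors outside the cell, 2 were marked in both lists, 5 in the DOP list only, 1 in the SST list only and 7 in neither. The 5 were Dkk2, Sfrp2, Frzb, Wif1 and Sost, inhibitors of ligand or co-receptor, and Rspo2, an enhancer of Wnt signalling, was the SST-only gene. The best DOP scores were 161.2 at Wif1 (percentile 18.2), 148 at Frzb (16.5), 100 at Sfrp2 (10.1), 84.1 at Sost (8.01) and 79.4 at Dkk2 (7.31), and Rspo2 had an SST score of 120 (13.97). All of them ranked in the lower part of their list, at percentile 18.2 or lower. Outside this role the DOP-only genes were Notum, which removes the lipid from Wnt proteins, with a score of 317 (percentile 38.4) 31 bp in front of the start, and Nkd2, an inhibitor of Dvl proteins, with a score of 90 (percentile 8.77).

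Most genes of the intracellular and membrane roles were marked in both lists, against 55.3% of all genes. This held for 12 of 14 genes of the cytoplasmic relay, 11 of 12 nuclear factors, 10 of 11 membrane co-receptors and turnover genes, and 6 of 9 polarity genes, the other 3 polarity genes being unmarked. Dvl2 (mean best percentile 99.2) and Fbxw11 (97.7) led the relay, Ryk (96.5) and Lgr4 (88.9) the membrane genes, Tcf7l2 (96.2) and Pygo2 (90.6) the nuclear factors, and Vangl1 (94.9) and Prickle1 (60.6) the polarity genes. Only 3 of 11 DOP and 2 of 10 SST peaks of Dvl2 lay nearest to its own start, and 3 of 8 and 2 of 7 of Pygo2. Lef1 was the nuclear factor without a peak. Among ligand processing genes, Wls, which carries Wnt proteins to the surface, had a value of 95.9 and Porcn, which attaches the lipid, 25.1. Of 8 common targets 4 were marked in both lists and 4 in neither, led by Myc (89.8) and Cd44 (69.6). The 2 secreted regulators marked in both lists were Sfrp4 (77.3), none of whose peaks lay nearest to its own start, and Rspo3 (12.04).

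The progenitor label was set against markers of the line and of other brain cells, with 55.3% of all genes marked in both lists and 40.7% in neither as the background. Among progenitor markers, Vim and Dlx1 had peaks in both lists, with mean best percentiles of 96.0 and 67.7. Dlx2 and Fabp7 had peaks in the DOP list only, the Fabp7 peak lying 9924 bp from its start and nearer to Smpdl3a. Nes, Sox2, Pax6 and Gsx2 had none in either list, so the progenitor markers named here went both ways. Of 4 neuronal markers found in the annotation, 0 had a peak. Of 6 markers of striatal projection neurons, Ppp1r1b and Foxp1 had peaks in both lists, with mean best percentiles of 82.8 and 89.2, and 4 had none, but only 2 of 4 DOP and 1 of 4 SST peaks of Ppp1r1b lay nearest to its own start. Of 6 mesenchymal markers, 4 had peaks in both lists, with mean best percentiles from 24.5 at Col1a2 to 76.6 at Col1a1. Single DOP-only calls were seen among astrocyte (1 of 4), oligodendrocyte lineage (1 of 5) and endothelial markers (1 of 3), and 1 of 4 microglial markers had peaks, which lay nearer to another gene.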

How the data were processed

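H3K9ac ChIP-seq of DOP-treated (2 samples) and vehicle-treated (2 samples) STHdh Q111 cells was used as deposited, in 1 peak list per condition. The authors aligned reads to mm9 and called peaks with GPS. The deposited lists hold 34286 (DOP) and 33355 (SST) peaks, more than the paper reports for its treated and untreated samples. How the deposited lists relate to the peak sets used in the paper is not stated. Their methods name Bowtie 2, whereas the submitters' processing notes list BWA 0.7.10. Each deposited peak has a centre, an interval and a score. The authors' definition of that score, the threshold, the use of the IgG sample and whether the 2 samples of each condition were pooled are not given in the sources used here, so the depth behind a peak is unknown. Columns that name no sample numbered 0.

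Gene starts, exons and UTRs came from GENCODE vM1, and sequences from the NCBIM37 (mm9) assembly. Coordinates are 1-based. Peaks were assigned within 10 kb of any transcript start, compared by overlap of at least 1 bp, and ranked within their list. The observed to expected CpG ratio is the CpG count times the length, divided by the product of the C and G counts. The genes, gene lists and alternatives were chosen with earlier results of these data known. Values were given for genes with a peak in 1 list only or with an unshared peak, the 8 genes with the highest mean best percentile (a list without a peak counting as 0) and the 5 largest changes among matched peaks, and of other pathway genes for those in 1 list only and the 2 highest per role. No test was run. The functions were tested on simulated data. Python 3.11.15, numpy 2.4.6, scipy 1.17.1, pysam 0.24.0 and matplotlib 3.10.9 were used. Alternatives were other windows, starts, score limits and rules for sharing. Some progenitor markers are not reported here.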

Additional observations from a re-analysis of the deposited data

How the results depend on the processing

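Of 94 values computed under 10 alternative settings, 74 stayed within 1.5 times the reported count (or, for a log2 ratio, moved by less than 1.5-fold), 19 moved and 1 reversed. The number of unshared SST peaks was 8 within 1 kb, 26 with a reciprocal overlap of 50%, 7 when centres within 500 bp counted as shared and 3 when centres within 1 kb did. The unshared DOP peaks numbered 11 and 9 under the last pair of rules. In the top 50% of each list by score, 34 DOP peaks and 35 SST peaks remained near the genes, of which 8 and 7 were unshared.

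Genes marked in a single list were recounted after seeing the data. The SST-only genes numbered 2 within 1 kb (Wnt2b and Wnt6), 0 within 20 kb and 0 at a score of at least 100, and within 5 kb the SST-only gene was Wnt2b in place of Wnt3a. In the top 50% the DOP-only genes were Fzd4, Wnt5b and Wnt10b and the SST-only gene was Fzd8. Within 20 kb, 1 gene was DOP-only, Wnt7b in place of Wnt1 and Wnt10b. The summed scores were also recomputed after seeing the data. Within 1 kb, 1 gene had a DOP sum over 1.5-fold lower, Fzd8, and within 20 kb the Wnt6 ratio was -0.60. A DOP sum over 1.5-fold higher was found at 1 gene within 20 kb (Wnt1), 1 at a score of at least 100 (Wnt2b) and 1 in the top 50% (Lrp5). In the top 50%, Ctnnb1 and Fzd5 were the genes with a lower sum, Fzd8 had no DOP peak and Wnt6 no peak in either list. With only peaks nearest to the gene's own start, the Fzd4 ratio was -0.075.

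No paired analysis was possible because the deposited lists do not separate the samples of a condition, and no replicate was left out for that reason. The depth of each list is unknown, so a site missing from a list was not called there, which does not show absence of the mark. The cause of these changes was not tested.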

Other observations

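The unmarked genes lay at very different distances from the nearest call. Wnt5a, a non-canonical ligand, was the most isolated, with the nearest DOP peak 882096 bp and the nearest SST peak 881893 bp from a start. Fzd10 followed with 407042 and 407098 bp. Wnt4 (79534 and 79548 bp), Wnt16 (67618 and 67551 bp), Wnt8b (61319 and 61329 bp), Wnt9b (51516 and 51992 bp), Wnt8a (35146 and 34988 bp) and Wnt7a (29417 and 29476 bp) had their nearest peaks at nearly the same distance in both lists. Wnt3 and Wnt7b did not, with 35984 bp to a DOP peak and 76321 bp to an SST peak at Wnt3, and 18687 and 29407 bp at Wnt7b. Wnt3 and Wnt9b start 24329 bp apart, and the pair with 10 kb on either side held 1 DOP peak and 0 SST peaks, although neither gene had a peak within 10 kb of a start.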
